A study of Caenorhabditis elegans with 30 samples.

Results

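Transcripts of the stearoyl-CoA desaturases and of genes known to regulate them were followed through 2 RNA-seq experiments on the nematode Caenorhabditis elegans. The set holds 9 genes taken by symbol: fat-5, fat-6 and fat-7, which encode the desaturases, the membrane-fluidity genes paqr-2 and iglr-2, and the transcriptional regulators mdt-15, sbp-1, nhr-49 and nhr-80. Each gene matched 1 of the 46904 rows of the lithium experiment and 1 of the 46778 rows of the ice experiment. The rule used no measured value, but the genes were chosen with earlier results of these data known. The study asked how cold and lithium slow the forgetting of an odour memory, and by its design a night at 15 C makes worms cold tolerant. All libraries came from polyadenylated RNA of whole worms of the wild-type strain N2, fed on E. coli OP-50. The lithium experiment has 4 groups of 3 libraries, untrained worms held overnight at 20 C or 15 C on plain NGM plates (the control) or on plates with 15 mM LiCl, with no time on ice. The ice experiment has 6 groups of 3 libraries. Its worms were naive or conditioned with butanone, spent the night at 20 C, at 15 C, or at 15 C followed by 2 hours back at 20 C, and all then lay on ice for 2 hours.

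Delta-9 desaturases put the first double bond into saturated fatty acids and so set the supply of monounsaturated fatty acids for membranes and stored fat. In C. elegans, FAT-5 acts mainly on palmitic acid, while FAT-6 and FAT-7 act mainly on stearic acid, and raising their output in the cold is a known way to keep membranes fluid. PAQR-2, a relative of the mammalian adiponectin receptors, works with the membrane protein IGLR-2 to promote desaturation, and the Mediator subunit MDT-15, the SREBP homologue SBP-1 and the nuclear receptors NHR-49 and NHR-80 are required for normal transcription of the desaturase genes.

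The genes lie on 4 chromosomes of the WBcel235 assembly (ce11). The fat-5 gene is on chromosome V (17725004 to 17726818, plus strand), fat-7 on chromosome V (7151353 to 7153146, minus strand) and fat-6 on chromosome IV (11913692 to 11915687, minus strand). The other regulators but one are on the minus strand of chromosome III: nhr-80 (11985 to 14869), paqr-2 (5375699 to 5379929), mdt-15 (5828557 to 5833751), iglr-2 (8326512 to 8331311) and sbp-1 (11428367 to 11442566). The nhr-49 gene is on chromosome I. FAT-6 and FAT-7 are close paralogues, and how the counting treated reads that match both is not given in the sources used here, so the split of reads between these genes is uncertain. Exons of iglr-2 share 195 bases with mrps-18A on the same strand, the largest overlap of a member with another gene, and the other overlaps (of fat-5, iglr-2, mdt-15 and sbp-1) span 28 to 146 bases.

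Lithium-experiment libraries held 10111055 to 27794834 counts and ice-experiment libraries 9873554 to 30054357, and the lowest count of any member in any library was 50. Replicate 2 of the 20 C control stood apart, with a median correlation of 0.887 with the other lithium-experiment libraries against 0.951 to 0.972 for the rest. Rows of ribosomal RNA took 28.4% and 24.2% of the counts in replicates 2 and 3 of the 15 C control and 13.8% in replicate 2 of the 15 C lithium group, against 1.08 to 8.14% in the other lithium-experiment libraries. Results of the lithium experiment are therefore also given with these rows, or these 3 libraries, left out, alternatives chosen after seeing the data. The second leaves 1 library in the 15 C control, which is assumed to vary like the other groups. In the ice experiment ribosomal RNA rows took 1.49 to 10.1% of the counts, the most in the naive library of letter F at 20 C. No ice library was left out for this. On ice each letter in the labels was used at 1 temperature, except letter H, used at 15 C and after the return to 20 C. Letter and temperature on ice therefore cannot be told apart. With naive and conditioned counts added, letters E and B had the lowest median correlations with the other sums (0.853 and 0.857, against 0.889 to 0.931). All 12 intestine markers were detected in every library, the intestine being a main site of desaturase expression. In whole worms fewer cells of a type and less RNA per cell cannot be told apart. Nothing states that lithium replicates came from separate cultures, so p-values measure the spread between these libraries.

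Levels of different genes are compared as CPM (read counts relative to the library total, scaled by TMM) per kilobase of exon. In the lithium experiment fat-6 had the highest median level, 328 CPM per kb over 12 libraries, followed by fat-7 at 180 and fat-5 at 65.0. Among the regulators nhr-49 stood at 46.8 CPM per kb, iglr-2 at 41.4, mdt-15 at 22.2, paqr-2 at 21.95, nhr-80 at 8.27 and sbp-1 at 7.90. On ice the medians over 18 libraries were 168 CPM per kb for fat-6, 40.5 for nhr-49, 40.0 for fat-7 and 12.7 for fat-5. The gap between the highest and lowest library also differed by gene. It was 1.58-fold for nhr-49 and 1.60-fold for fat-6 in the lithium experiment, against 4.15-fold for fat-7 and 8.30-fold for sbp-1. On ice fat-7 spanned 32.6-fold and nhr-80 11.3-fold, while nhr-49 spanned 2.05-fold.

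The first comparison asked what a night at 15 C did to these genes. Averaged over both agars, 2 of the 9 genes were called higher at 15 C (edgeR quasi-likelihood test, Benjamini-Hochberg adjusted p under 0.05) and none lower, where 15.3% of the 12392 genes tested were called in either direction, 5.82% higher and 9.48% lower. Both were desaturase genes, fat-5 and fat-7. The third desaturase gene, fat-6, was not called.

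For fat-5, plain-agar libraries at 20 C held 60.2, 43.3 and 68.0 CPM, and those at 15 C held 77.6, 86.3 and 99.6 CPM. With lithium they held 35.2, 42.4 and 65.0 CPM at 20 C and 75.6, 91.2 and 120 CPM at 15 C. Every library at 15 C was above every library at 20 C, on each agar and over both together, where 4.96% of all genes had groups that did not overlap. The averaged log2 fold change was 0.81 (SE 0.18, 95% interval 0.43 to 1.20, adjusted p = 0.0191), a 1.76-fold increase. On plain agar alone it was 0.62 (SE 0.25, adjusted p = 0.0961), and with lithium alone 1.01 (SE 0.25, adjusted p = 0.310), neither of them called by edgeR. DESeq2 called the second (0.99, adjusted p = 0.0356). The averaged call was kept in 9 of 12 fits that left out 1 library. It was lost without replicate 2 of the 15 C control (0.82, adjusted p = 0.0503), without replicate 3 of that group (0.77, adjusted p = 0.0675) and without replicate 1 of the 20 C lithium group (0.73, adjusted p = 0.0517). With ribosomal RNA rows left out the value was 0.80 (adjusted p = 0.0174). Without the 3 libraries rich in ribosomal RNA it was 0.77 (adjusted p = 0.419), and 0 genes were called by edgeR in that comparison.

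For fat-7, plain-agar libraries held 142.3, 167 and 290 CPM at 20 C against 185, 365 and 444 CPM at 15 C. With lithium they held 117, 108 and 177 CPM at 20 C against 219, 347 and 448 CPM at 15 C. The groups overlapped on plain agar, and with lithium every library at 15 C was higher. Replicate 3 had the highest fat-7 level in each of the 4 groups. The averaged log2 fold change was 1.03 (SE 0.26, 95% interval 0.47 to 1.60, adjusted p = 0.0269), a 2.04-fold increase, with 0.73 (SE 0.37, adjusted p = 0.149) on plain agar and 1.33 (SE 0.37, adjusted p = 0.361) with lithium. DESeq2 called fat-7 with lithium (1.31, adjusted p = 0.0451).

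Leaving out 1 library kept the averaged fat-7 call in 6 of 12 fits. Without 1 library of the 15 C control the log2 fold change was 1.00 (replicate 2 left out, adjusted p = 0.0653) or 0.90 (replicate 3, adjusted p = 0.0843). Without replicate 2 of the 15 C lithium group it was 1.03 (adjusted p = 0.0578), and without replicate 3 of that group 0.89 (adjusted p = 0.0578). Without replicate 2 of the 20 C control it was 0.97 (adjusted p = 0.0585), and without replicate 1 of the 20 C lithium group 0.99 (adjusted p = 0.0765). The direction was the same in all 12 of these fits, for fat-5 as for fat-7. The 15 C control libraries with the higher fat-7 levels, replicates 2 and 3, were those rich in ribosomal RNA. In the 15 C lithium group the highest fat-7 level was in replicate 3, with 1.60% of counts in ribosomal RNA rows. With those rows left out the averaged log2 fold change was 1.02 (adjusted p = 0.0275). Without the 3 libraries rich in ribosomal RNA it was 0.63 (adjusted p = 0.421), and the plain-agar value went from 0.73 to -0.02 (adjusted p = 0.984).

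**Figure D1:**
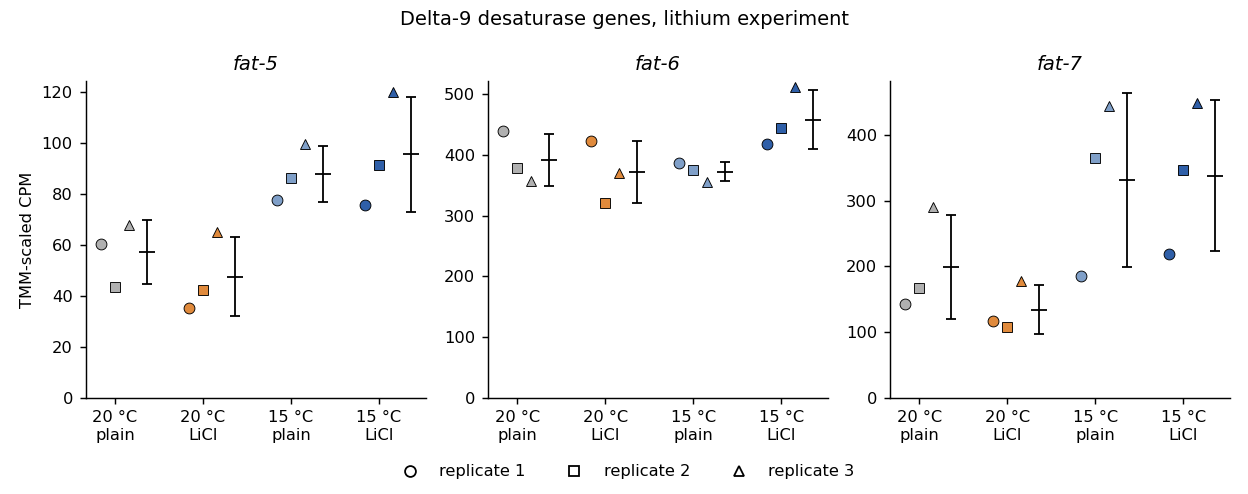
TMM-scaled CPM of fat-5, fat-6 and fat-7 in the 12 lithium-experiment libraries. Symbols mark the replicate number, and bars show the mean and SD of 3 libraries. The fat-5 libraries at 15 C, 75.6 to 120 CPM, lie above those at 20 C, 35.2 to 68.0 CPM, while fat-6 varies little.

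The fat-6 gene, which encodes the other stearic acid desaturase, was called on neither agar nor in the average. On plain agar it stood at 440, 378 and 357 CPM at 20 C and at 386, 375 and 356 CPM at 15 C. With lithium the values were 423, 321 and 370 CPM at 20 C and 418, 444 and 512 CPM at 15 C. The averaged log2 fold change was 0.12 (SE 0.11, 95% interval -0.11 to 0.34, adjusted p = 0.436). It was -0.07 (SE 0.15, adjusted p = 0.722) on plain agar and 0.30 (SE 0.15, 95% interval -0.02 to 0.63, adjusted p = 0.442) with lithium. Whether fat-6 and fat-7 differ in their response was not tested.

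The make-up of the desaturase transcripts differed between libraries. Summed per length, the 3 genes reached 565 ± 57.2 CPM per kb at 20 C and 693 ± 115 at 15 C on plain agar (SD, n = 3 each). With lithium the sums were 481 ± 64.4 CPM per kb at 20 C and 780 ± 162 at 15 C. The share of fat-7 in that sum was 30.9 ± 9.41% at 20 C and 41.3 ± 10.9% at 15 C on plain agar, and 24.6 ± 4.42% and 37.8 ± 5.69% with lithium. The share of fat-6 was 60.0 ± 9.75% and 47.2 ± 10.2% on plain agar, and 66.5 ± 6.64% and 51.2 ± 5.83% with lithium. The share of fat-5 lay between 6.39 and 12.4% in all 12 libraries. These shares are a description, and no test was run on them. On plain agar the fat-7 shares of the temperatures overlapped (22.6 to 41.2% at 20 C, 29.1 to 49.9% at 15 C), and with lithium they did not (20.9 to 29.5%, 31.3 to 42.1%).

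**Figure D2:**
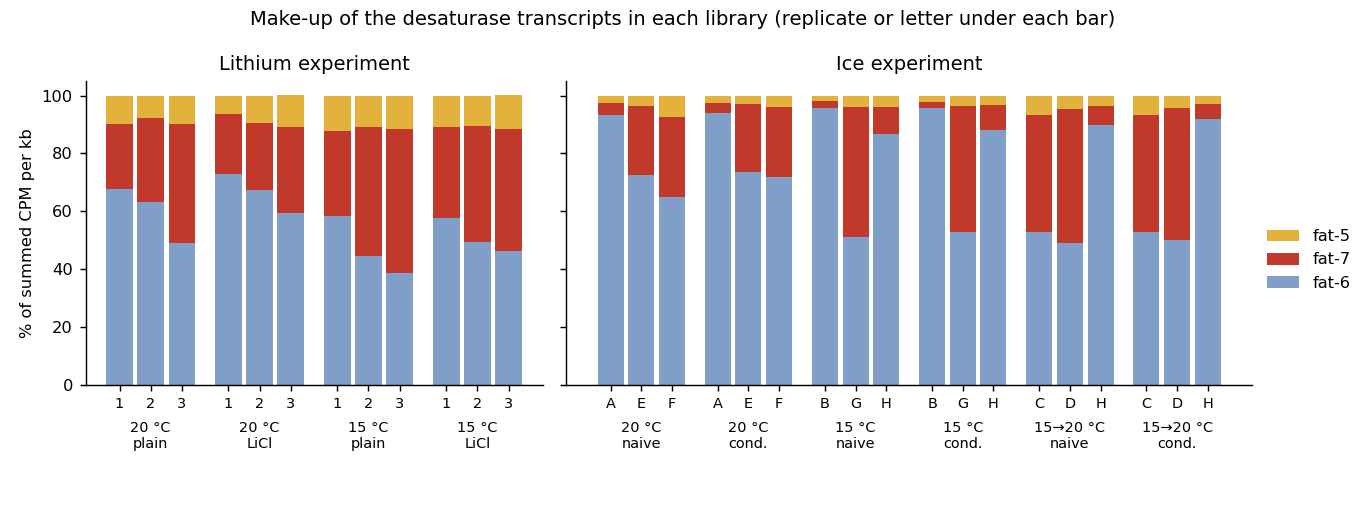
Share of fat-5, fat-6 and fat-7 in their summed CPM per kb, 1 bar for each library, with 12 lithium-experiment libraries on the left and 18 ice-experiment libraries on the right. In the ice experiment the fat-7 share is 1.92 to 9.47% in letters A, B and H and 23.5 to 46.3% in letters C, D, E, F and G.

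None of the 6 regulators was called between 15 C and 20 C, and the fitted values of nhr-80 and sbp-1 were negative. On plain agar nhr-80, a nuclear receptor gene, held 17.5, 25.6 and 14.6 CPM at 20 C and 13.1, 11.4 and 10.2 CPM at 15 C. With lithium it held 22.6, 15.3 and 15.9 CPM at 20 C and 14.0, 15.2 and 15.2 CPM at 15 C. Within each agar the 15 C libraries were all lower. On plain agar alone edgeR called 0 members, where it called 9.97% of all genes, and 2 members (fat-5 and nhr-80) had an unadjusted p under 0.05, as 39.7% of all genes did. DESeq2 called 1 member there, nhr-80. Groups did not overlap on plain agar for 2 of the 9 members (fat-5 and nhr-80; 45.7% of all genes) and with lithium for 3 (fat-5, fat-7 and nhr-80; 20% of all genes).

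The averaged log2 fold change of nhr-80 was -0.51 (SE 0.17, adjusted p = 0.0594) by edgeR and -0.50 (adjusted p = 0.0297) by DESeq2. It was -0.61 (adjusted p = 0.028) by edgeR without replicate 3 of the 20 C control. Over its other alternatives the adjusted p reached 0.459, without the 3 libraries rich in ribosomal RNA. On plain agar alone the value was -0.73 (SE 0.24, adjusted p = 0.062), and DESeq2 gave -0.69 (adjusted p = 0.0354). Without replicate 3 of the 20 C control the plain-agar value was -0.89 (adjusted p = 0.0303), and without replicate 2 of that group -0.48 (adjusted p = 0.232).

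For sbp-1, the SREBP homologue, plain-agar libraries held 30.7, 107 and 30.8 CPM at 20 C and 32.5, 27.6 and 20.7 CPM at 15 C. Those with lithium held 77.6, 22.5 and 20.7 CPM at 20 C and 26.1, 12.9 and 23.1 CPM at 15 C. One library in each 20 C group was thus far above the others. The averaged log2 fold change was -1.01 (SE 0.40, adjusted p = 0.096), and DESeq2 called it (-1.001, adjusted p = 0.0409). It was -0.57 (adjusted p = 0.286) without replicate 2 of the 20 C control and -0.55 (adjusted p = 0.298) without replicate 1 of the 20 C lithium group. Replicate 2 of the 20 C control also had the highest mean level of the epidermis and cuticle markers (3.48 log2 CPM) and the lowest of the germline and oocyte markers (7.66 log2 CPM) among the 12 libraries. In replicate 1 of the 20 C lithium group these levels were 1.08 and 8.97 log2 CPM. The part of these markers in the sbp-1 value was not tested.

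The remaining regulators gave averaged log2 fold changes near 0 between temperatures. The receptor gene paqr-2 ran from 48.7 to 57.8 CPM in the 20 C control and from 44.3 to 53.4 CPM in the 15 C control (log2 fold change -0.17 over both agars, 95% interval -0.46 to 0.12). Its partner iglr-2 ran from 84.2 to 129 and from 128 to 130 CPM (0.27, -0.07 to 0.60). The Mediator gene mdt-15 ran from 92.5 to 130 and from 108 to 126 CPM (-0.07, -0.38 to 0.24), and the nuclear receptor gene nhr-49 from 77.7 to 111 and from 88.6 to 98.1 CPM (0.02, -0.26 to 0.29). Each interval excludes a change of 1 or more on the log2 scale.

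**Figure D3:**
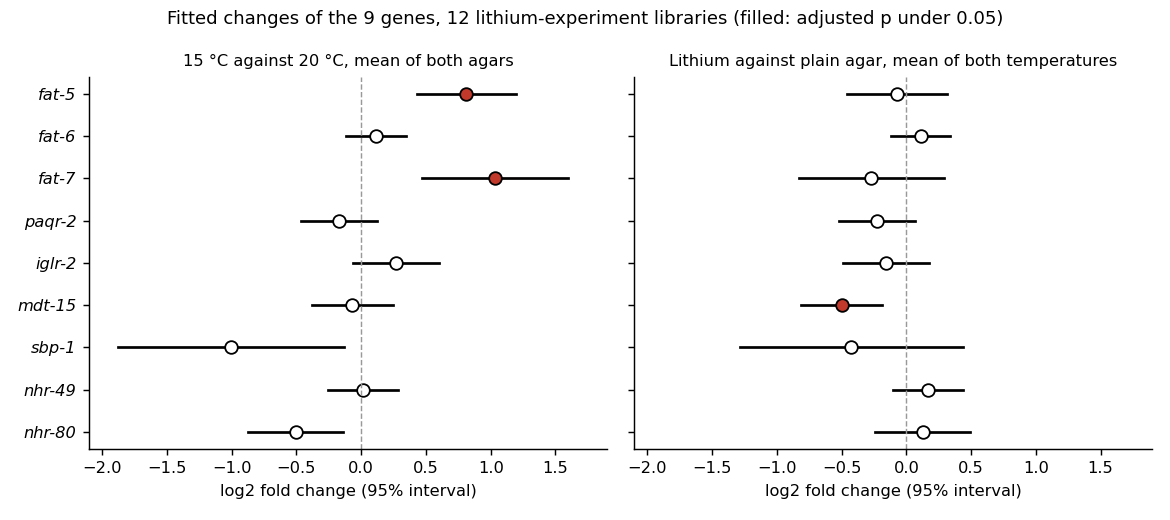
Log2 fold change of the 9 genes with 95% intervals, on the left for 15 C against 20 C averaged over both agars and on the right for lithium against plain agar averaged over both temperatures. Filled points passed an adjusted p of 0.05 in edgeR: fat-5 (0.81) and fat-7 (1.03) on the left, mdt-15 (-0.50) on the right.

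Lithium was compared with plain agar to ask whether it reaches the same genes. Averaged over both temperatures, 1 of the 9 members was called, mdt-15, which encodes the Mediator subunit that serves SBP-1 and NHR-49 as a coactivator. It was lower with lithium, where 18.2% of all genes were called and 7.96% were called lower. At 20 C it held 92.5, 130 and 126 CPM on plain agar and 87.0, 91.4 and 83.7 CPM with lithium. At 15 C it held 120, 126 and 108 CPM on plain agar and 97.4, 53.9 and 83.3 CPM with lithium. Every lithium library was below every plain-agar library of its own temperature, while over both temperatures together no member had groups that did not overlap (5.66% of all genes).

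The averaged mdt-15 log2 fold change was -0.50 (SE 0.14, 95% interval -0.81 to -0.19, adjusted p = 0.0336), 0.707-fold. It was -0.41 (SE 0.20, adjusted p = 0.175) at 20 C and -0.59 (SE 0.20, adjusted p = 0.205) at 15 C. The averaged call was kept in 5 of 12 fits that left out 1 library, and the values without 1 library ran from -0.64 to -0.39. For the 15 C control, the call was lost without replicate 1 (-0.49, adjusted p = 0.0749) and without replicate 2 (-0.47, adjusted p = 0.089). It was also lost without replicate 3 of the 15 C lithium group (-0.56, adjusted p = 0.0536) and without replicate 2 of the 20 C control (-0.46, adjusted p = 0.0518). For the 20 C lithium group it was lost without replicate 1 (-0.49, adjusted p = 0.0587), replicate 2 (-0.55, adjusted p = 0.0575) and replicate 3 (-0.48, adjusted p = 0.0808). With ribosomal RNA rows left out the value was -0.54 (adjusted p = 0.0277), and without the 3 libraries rich in them -0.395 (adjusted p = 0.287).

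**Figure D4:**
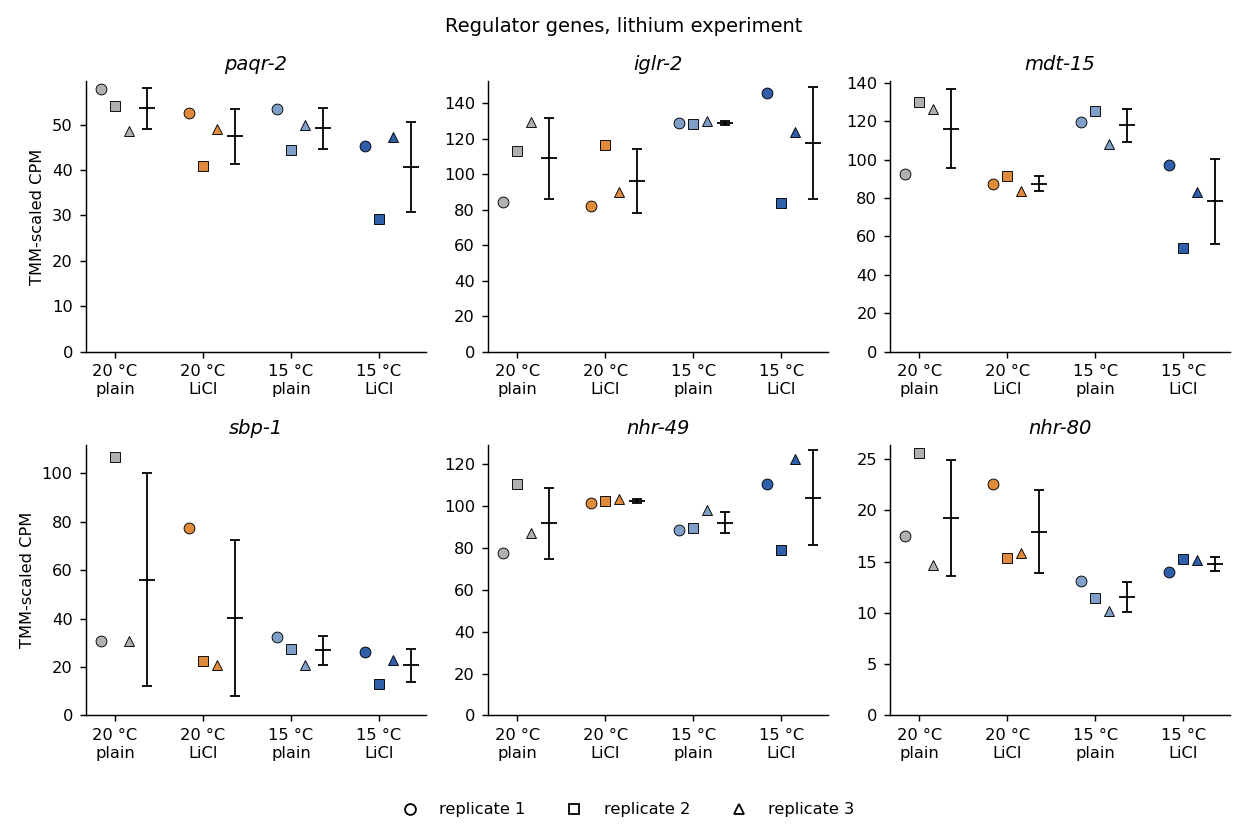
TMM-scaled CPM of the 6 regulator genes in the 12 lithium-experiment libraries. Symbols mark the replicate number, and bars show the mean and SD of 3 libraries. The mdt-15 panel shows lithium libraries, 53.9 to 97.4 CPM, below the plain-agar libraries of the same temperature, and the sbp-1 panel shows 2 high libraries at 20 C, 107 and 77.6 CPM.

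No desaturase gene was called for lithium. The averaged log2 fold changes were -0.07 for fat-5 (95% interval -0.46 to 0.31), 0.11 for fat-6 (-0.12 to 0.34) and -0.27 for fat-7 (-0.83 to 0.29). At 20 C alone 0 of 9 members were called by edgeR or DESeq2, where edgeR called 12.2% of all genes, and no member had an unadjusted p under 0.05 (33.4% of all genes). Groups did not overlap there for 1 member, mdt-15 (33.5% of all genes). At 15 C alone 0 members were called by either tool, where edgeR called 0.387% of all genes, and 1 member, mdt-15, had an unadjusted p under 0.05 (16.4% of all genes). Groups did not overlap at 15 C for 3 members (31.1% of all genes): mdt-15 was lower, and fat-6 and nhr-80 were higher in every lithium library. For fat-6 at 15 C the log2 fold change was 0.30 (SE 0.15, adjusted p = 0.337), and for nhr-80 it was 0.35 (SE 0.24, adjusted p = 0.480).

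Whether lithium acted differently at the temperatures was tested as an interaction. It called 0 members and 0% of all genes by edgeR, with 0 members and 10.2% of all genes (1261) at an unadjusted p under 0.05. DESeq2 called 2 genes and no member. The desaturase values were 0.39 for fat-5 (95% interval -0.38 to 1.16), 0.38 for fat-6 (-0.08 to 0.83) and 0.60 for fat-7 (-0.52 to 1.72). For 15 C against 20 C with lithium alone edgeR called 0% of all genes, with 2 members and 11.7% of all genes (1445) at an unadjusted p under 0.05, while DESeq2 called 2 members and 0.839% of all genes.

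Other genes of the pathway were counted for the averaged temperature comparison, with 15.3% of all genes called, 9.48% lower and 5.82% higher, and a median log2 fold change of 0.00 over all genes. Of 14 measured genes for polyunsaturated fatty acid desaturases and elongases, 4 fell at 15 C, none rose, and the median was -0.18. The 4 are the desaturase genes downstream of the delta-9 step: fat-2, the delta-12 desaturase (-1.17, SE 0.12, adjusted p = 0.0018), fat-1, the omega-3 desaturase (-0.78, SE 0.12, adjusted p = 0.00897), fat-3, the delta-6 desaturase (-1.03, SE 0.19, adjusted p = 0.011), and fat-4, the delta-5 desaturase (-0.49, SE 0.11, adjusted p = 0.0215). The calls of fat-1, fat-2 and fat-3 were kept in 12 of 12 fits without 1 library. That of fat-4 was kept in 9, being lost without replicate 2 or 3 of the 15 C control or replicate 1 of the 20 C lithium group.

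The fat breakdown list holds 9 genes that depend on NHR-49 or respond with it. Not all of them encode enzymes of fat breakdown, fmo-2 being an exception. Of the 9 genes, 6 fell and 1 rose at 15 C, with a median of -1.39. The flavin monooxygenase gene fmo-2 (-2.48, SE 0.38), the acyl-CoA synthetase gene acs-2 (-1.55, SE 0.29), the dehydrogenase gene hacd-1 (-1.21, SE 0.22) and the lysosomal lipase gene lipl-3 (-1.84, SE 0.43) were among those that fell. The carnitine palmitoyltransferase gene cpt-5, named after its value was seen, was the one that rose (1.04, SE 0.26). Without 1 library, fmo-2 and hacd-1 kept their calls in 12 of 12 fits, acs-2 in 11 (not without replicate 3 of the 15 C control) and lipl-3 in 9. For cpt-5 the call was kept in 7, and over the 9 genes 2 to 6 were lower and 0 to 1 higher. The lipl-3 call was lost without the same libraries as that of fat-4. The cpt-5 call was lost without replicate 2 or 3 of the 15 C control, replicate 1 or 2 of the 15 C lithium group or replicate 1 of the 20 C lithium group. With ribosomal RNA rows left out 5 genes of the polyunsaturated list were lower, the additional one being hpo-8, named after its value was seen. Without the 3 libraries rich in ribosomal RNA 0 genes were called in either list, with medians of -0.18 for the polyunsaturated and -1.16 for the fat breakdown genes. The nhr-49 transcript itself had a log2 fold change of 0.02.

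The remaining groups were read against the same averaged comparison. Of 17 genes of phosphatidylcholine synthesis and the methionine cycle 3 fell, pmt-1 (-0.80), metr-1 (-0.99) and ahcy-1 (-0.41), and 0 to 3 were lower when 1 library was left out. The pmt-1 call was lost without replicate 2 or 3 of the 15 C control or replicate 1 of the 20 C lithium group, the metr-1 call also without replicate 2 of the 15 C lithium group, and the ahcy-1 call was kept in 1 of 12 fits, without replicate 2 of the 20 C lithium group. Of 8 PAQR relatives and genes known to modify paqr-2 mutants 2 fell, hacd-1 and the acyl-CoA dehydrogenase gene acdh-11 (-0.49), whose call was lost without the same libraries as that of metr-1. Of 11 other transcription factors linked to desaturase genes 2 fell. The first, pqm-1 (-0.95), lost its call without replicate 2 or 3 of the 15 C control, and the second, hlh-30 (-0.92), kept its call in 4 of 12 fits, those without replicate 1 or 3 of the 20 C control or replicate 2 or 3 of the 20 C lithium group. Of 9 genes of fatty acid and lipid synthesis 1 fell, the acetyl-CoA carboxylase gene pod-2 (-0.61), kept in 2 of 12 fits, those without replicate 1 of the 20 C control or replicate 2 of the 20 C lithium group. All 26 Mediator subunit genes other than mdt-15 had positive values (median 0.30), of which 2 were called and 0 to 4 when 1 library was left out. The mdt-30 call (0.58) was lost without the same libraries as that of cpt-5, and the mdt-26 call (0.34) was kept in 1 of 12 fits, without replicate 3 of the 20 C control. No gene of these lists was called without the 3 libraries rich in ribosomal RNA, and the Mediator median was then 0.28.

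The same lists were read for lithium averaged over both temperatures, where 10.2% of all genes were called higher and 7.96% lower. Of the 26 other Mediator genes, 7 were higher with lithium and none lower (median 0.21), opposite in sign to mdt-15. The most significant were mdt-6 (0.81, SE 0.14, adjusted p = 0.00646), mdt-11 (0.77, SE 0.17, adjusted p = 0.0132), mdt-19 (0.80, SE 0.18, adjusted p = 0.0136) and mdt-22 (0.68, SE 0.16, adjusted p = 0.0182). The first 3 kept their calls in 12 of 12 fits without 1 library. The mdt-22 call was lost without replicate 2 of the 15 C control, replicate 3 of the 15 C lithium group or replicate 2 or 3 of the 20 C lithium group. The other 3, mdt-20 (0.73), mdt-28 (0.53) and mdt-8 (0.38), were kept in 5, 1 and 0 of 12, and were named after their values were seen. Over the 26 genes 3 to 8 were then called higher and 0 to 3 lower. Beside this, 5 of 14 germline and oocyte markers were called higher with lithium (0 to 6 when 1 library was left out), as was 1 of 12 intestine markers, of which 3 were lower. Of 10 tested epidermis and cuticle markers 6 were lower (5 to 6), and 0 of 12 neuron, 11 muscle and 4 tested sperm markers were called in this average. The part of cell types in these values was not tested. The polyunsaturated list held 1 lower gene, fat-3 (-0.95, SE 0.18), and the fat breakdown list 2 lower, acs-2 (-1.68, SE 0.29) and cpt-5 (-1.05, SE 0.26), and 1 higher, fmo-2 (1.49, SE 0.38). Without 1 library, acs-2 and fat-3 kept these calls in 12 of 12 fits, cpt-5 in 11 (not without replicate 2 of the 15 C control) and fmo-2 in 9 (not without replicate 2 of the 15 C control, replicate 1 of the 15 C lithium group or replicate 2 of the 20 C lithium group). The methionine-cycle gene sams-5 was lower (-1.53, SE 0.36, kept in 12 of 12), the only call among 17 genes of its list. None of the 9 lipid synthesis genes, 8 PAQR relatives and modifiers or 11 transcription factors was called in this average, with medians of -0.25, 0.06 and -0.05. At 20 C alone, where edgeR called 12.2% of all genes, acs-13 of the PAQR list was higher with lithium (0.84, SE 0.20, adjusted p = 0.0272). Its list fellow paqr-3 was lower there (-2.78, SE 0.79, adjusted p = 0.0419). In the average with ribosomal RNA rows left out, 5 Mediator genes were higher, without mdt-28 and mdt-8. Lower in that fit were fasn-1 of the lipid synthesis list and cept-1 and pcyt-1 of the phosphatidylcholine list. The last 2 are also modifiers of paqr-2, and all 3 were named after their values were seen. Without the 3 libraries rich in ribosomal RNA no gene of any list was called for lithium, and the Mediator median was 0.22.

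Cell type markers gave 3 calls for temperature averaged over both agars, elt-7, ifb-2 and unc-64. They were kept in 3, 3 and 4 of 12 fits without 1 library, and in none without the 3 libraries rich in ribosomal RNA. At 15 C, 2 of 12 intestine markers were called lower and none higher (median -0.33), and their mean level ran from 6.91 to 7.29 log2 CPM in the libraries at 15 C and from 7.06 to 7.62 at 20 C. Of 14 germline and oocyte markers 0 were called, with a median of 0.22, and of 10 epidermis and cuticle markers 0, with a median of -0.31. Of 12 neuron markers 1 was lower (median -0.42), and of 11 muscle and 4 tested sperm markers 0 were called (medians -0.45 and 0.18). When 1 library was left out, 0 to 3 intestine, 0 to 2 neuron and 0 to 4 muscle markers were called lower, and the epidermis median ran from -0.48 to 0.13. The fat-5 and fat-7 values went in the direction opposite to the intestine median, which was -0.15 without the 3 libraries rich in ribosomal RNA. The part of cell types in the fat-5 and fat-7 values was not tested.

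On ice the same temperatures were compared over 9 sums, in which the naive and conditioned counts of a letter were added. No member was called for 15 C against 20 C, where edgeR called 0% of 15412 genes and DESeq2 called 160. The number of genes at an unadjusted p under 0.05 was 1945 (12.6%), 2 members among them (fat-5 and nhr-80). At 20 C fat-5 held 4.24 CPM in letter A, 6.10 in E and 9.16 in F. At 15 C it held 17.7 CPM in B, 7.67 in G and 14.8 in H, and after the return to 20 C 23.2 in C, 20.6 in D and 23.3 in H. The returned worms were above both other groups in every sum. Groups did not overlap for 15.9% of all genes in the return against 20 C and for 3.37% in the return against 15 C.

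The fat-5 log2 fold change was 1.04 (SE 0.46, 95% interval 0.02 to 2.06, adjusted p = 0.390) for 15 C against 20 C, 0.74 (SE 0.46, adjusted p = 1.0) for the return against 15 C, and 1.78 (SE 0.47, 95% interval 0.74 to 2.82, adjusted p = 0.115) for the return against 20 C. DESeq2 called the last of these (1.77, adjusted p = 0.00776). The comparisons share sums, so they are not independent of each other. For the return against 20 C edgeR called 0% of all genes, with 2 members (fat-5 and fat-7) and 12% of all genes (1855) at an unadjusted p under 0.05. DESeq2 called 1 member, fat-5, and 873 genes in all. For the return against 15 C edgeR called 0% of all genes, with 0 members and 3.32% of all genes (512) at an unadjusted p under 0.05. DESeq2 called no member and 1 gene in all.

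Unlike in the lithium experiment, fat-6 varied widely on ice. It held 167, 147 and 110 CPM at 20 C (letters A, E and F), and 809, 111 and 371 CPM at 15 C (B, G and H). After the return it held 190, 246 and 679 CPM (C, D and H). High values came from letters B and H. The log2 fold change was 1.61 (SE 0.74, adjusted p = 0.393) for 15 C against 20 C and 0.78 (adjusted p = 0.939) without letter B. For the return against 20 C it was 1.40 (SE 0.74, adjusted p = 0.489), and 0.62 (adjusted p = 0.884) without letter H.

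The order of the letters was different for fat-7. It held 6.50, 46.3 and 40.9 CPM at 20 C (A, E and F), 16.9, 91.8 and 37.5 CPM at 15 C (B, G and H), and 140, 221 and 42.7 CPM after the return (C, D and H). The lowest value of each temperature came from letters A, B or, after the return, H. The log2 fold change was 0.64 (SE 0.83, adjusted p = 0.762) for 15 C against 20 C, and -0.20 (adjusted p = 0.914) without letter G. For the return against 20 C it was 2.11 (SE 0.86, 95% interval 0.22 to 3.998, adjusted p = 0.373), and it was called when no filter on low counts was applied (2.08, adjusted p = 0.014).

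**Figure D5:**
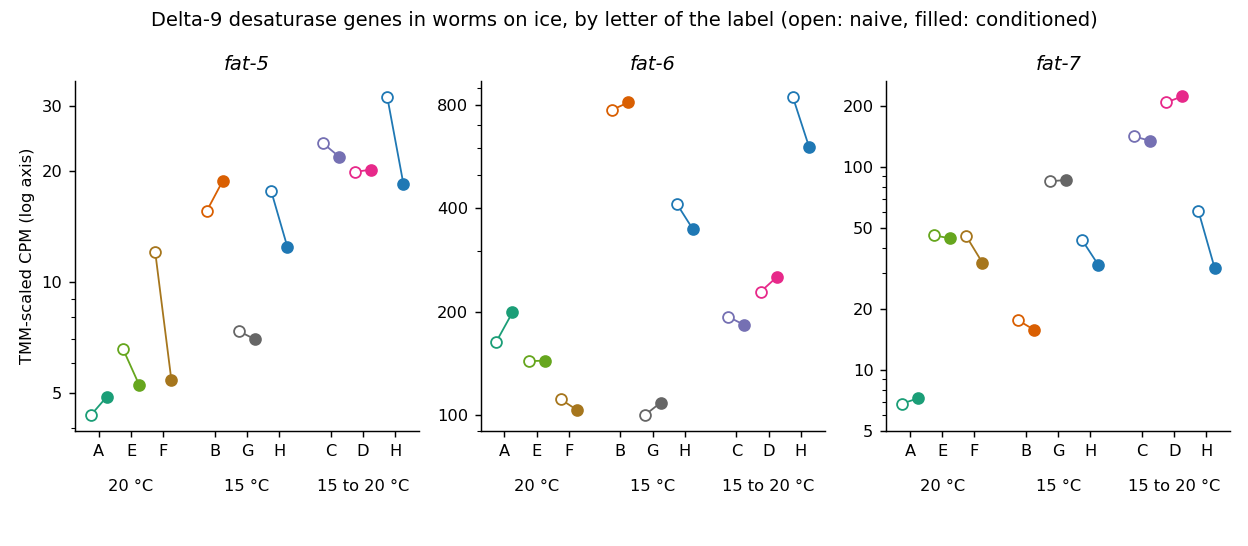
TMM-scaled CPM of fat-5, fat-6 and fat-7 in the 18 ice-experiment libraries on log axes, 1 pair of points for each letter and temperature, open for naive and filled for conditioned worms. The pairs lie close together for most letters, while fat-6 spans 99.9 to 845 CPM and fat-7 6.84 to 223 CPM over the letters.

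The ratio of fat-6 to fat-7 per length set letters A, B and H above the others. It was 42.5 and 49.8 in the naive and conditioned libraries of letter B, 23.1 and 26.5 in those of A, and 9.15 to 18.3 in the 4 libraries of H. In C, D and G it lay between 1.06 and 1.32, and in E and F between 2.35 and 3.13. High and low ratios occurred at each of the temperatures, and both libraries of a letter at a temperature were high or both were low. For H after the return they were 13.4 (naive) and 18.3 (conditioned). In the lithium experiment the ratio ran from 0.774 to 3.48. Summed CPM of the fat breakdown list also differed by letter, with 16695 and 18439 in B, 6118 to 9688 in H and 3477 and 3851 in A, against 246 to 1839 in C, D, E, F and G. Summed CPM of the 12 intestine markers ran from 4838 to 10944 in A, B and H and from 3163 to 8710 in the other letters, and that of the 11 muscle markers from 13431 to 42434 and from 4021 to 18934. The part of cell types in these ratios was not tested. Ice libraries were made with 2 SMART-Seq kits, and which kit served which library is not given in the sources used here. The part of the kit, or of reads that match both genes, was not tested either.

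Letter H gave the only matched pair of temperatures on ice. Between its sum at 15 C and its sum after the return, fat-6 went from 371 to 679 CPM (log2 ratio 0.87), fat-5 from 14.8 to 23.3 (0.65) and fat-7 from 37.5 to 42.7 (0.19). The regulators moved by -0.34 (mdt-15) to 0.26 (nhr-80). This is 1 pair with no replicate.

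Among the regulators on ice, nhr-80 held 18.2, 6.82 and 21.2 CPM at 20 C, 49.8, 17.3 and 55.0 CPM at 15 C, and 22.9, 26.4 and 66.04 CPM after the return. Its log2 fold change for 15 C against 20 C was 1.40 (SE 0.62, adjusted p = 0.390), of the opposite sign to the lithium experiment (-0.51). The difference between the experiments was not tested, and they differ in ice, in library kit and in the counting table. For sbp-1 the values were 14.2, 7.06 and 14.4 CPM at 20 C, 40.6, 11.7 and 18.3 CPM at 15 C, and 9.15, 8.28 and 21.6 CPM after the return. Its log2 fold change for 15 C against 20 C was 0.99 (SE 0.59, adjusted p = 0.457), and 0.34 (adjusted p = 0.993) without letter B.

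The other regulators lay closer together. Over the 9 sums paqr-2 ran from 21.6 to 65.6 CPM, iglr-2 from 65.9 to 112, mdt-15 from 35.8 to 82.7 and nhr-49 from 59.2 to 106. For the return against 20 C, 4 of the 9 members had groups that did not overlap, fat-5, fat-6, nhr-49 and nhr-80, all higher, where 15.9% of all genes did not overlap. For the return against 15 C it was 1 member, fat-5 (3.37% of all genes), and for 15 C against 20 C none (10.3% of all genes). The median log2 fold change of the 9 members for 15 C against 20 C on ice was 0.64, beside 0.15 for all genes. The NHR-49 list had a median of 2.32 in that comparison, with 8 of 9 genes positive and 0 called, a sign opposite to that in the lithium experiment (-1.39). Its summed CPM differed by letter and overlapped between the temperatures, from 793 to 18439 at 15 C and from 246 to 3851 at 20 C. The highest values at 15 C came from letter B.

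Training was compared within the ice experiment, conditioned against naive worms averaged over the 3 temperatures. The fit did not pair the libraries by letter, so the spread between letters enters its SEs and intervals. No member was called, where 0% of 14864 genes were called by edgeR or DESeq2, and no member and 0.215% of all genes (32) had an unadjusted p under 0.05. Nor did any member move in 1 direction in all 9 letter pairs, as 0.626% of all genes did. The 23 alternatives in edgeR and DESeq2 included a block for letter within temperature. Over them the lowest adjusted p of a member was 0.421, for iglr-2. The largest values were -0.32 for fat-5 (SE 0.26, 95% interval -0.87 to 0.23) and 0.30 for iglr-2 (SE 0.20, 95% interval -0.12 to 0.72). For iglr-2 the conditioned library was higher in every letter pair but that of E (-0.04). Log2 ratios of fat-6 in the 9 pairs ran from -0.48 (H, after the return) to 0.28 (A), and those of fat-7 from -0.92 (H, after the return) to 0.10 (D).

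Genes whose level followed a member most closely were ranked by the lower of 2 Pearson correlations of log2 CPM, over 12 lithium-experiment and over 18 ice-experiment libraries, among 11706 genes. The libraries share their treatments, letters and depth, so these are descriptions. For fat-7 they were the collagen gene col-124 (r 0.87 and 0.84), C39B5.5 (0.84 and 0.83) and the collagen gene col-142 (0.82 and 0.79). For fat-5 they were H06A10.1 (0.71 and 0.76), K02E11.5 (0.70 and 0.71) and spe-4 (0.65 and 0.80), and for fat-6 spe-4 (0.76 and 0.82), K07A1.13 (0.70 and 0.76) and M176.4 (0.68 and 0.79). The gene spe-4 is known for its role in sperm formation, and sperm markers summed to 2.36 to 316 CPM in ice libraries and 5.67 to 12.4 CPM in lithium-experiment libraries. The closest gene was nhr-131 for nhr-80 (0.97 and 0.96), the filamin gene fln-1 for mdt-15 (0.96 and 0.95), tir-1 for sbp-1 (0.92 and 0.93), ccpp-1 for iglr-2 (0.93 and 0.87), cnt-1 for paqr-2 (0.82 and 0.85) and mlc-1 for nhr-49 (0.85 and 0.73).

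Between members, fat-5 and fat-7 had r 0.90 over the lithium-experiment libraries and 0.51 over the ice libraries. For fat-6 and fat-7 the values were 0.29 and -0.22. The pair sbp-1 and nhr-80 had 0.73 and 0.76, the pair iglr-2 and mdt-15 had 0.63 and 0.80, and fat-6 and nhr-80 had 0.21 and 0.81. The sign of fat-5 with nhr-80 changed between the experiments, from -0.74 to 0.68.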

How the data were processed

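The authors deposited 1 table of unnormalized gene-level counts for each experiment, made with cutadapt, FastQC, HISAT2, HTSeq and DESeq2 on build ce11, per the submitters' processing notes. Versions, settings and whether counting used strand are not given in the sources used here, nor is which of 2 SMART-Seq kits served which ice library. Symbols, coordinates and exon lengths came from the Ensembl annotation of WBcel235. Counts were fitted with edgeR 4.0.16 (R 4.3.3, limma 3.58.1; TMM scaling, filterByExpr, robust quasi-likelihood F test, two-sided, Benjamini-Hochberg adjustment over all genes tested, threshold 0.05), after a check on simulated counts. The fits were 12 lithium-experiment libraries (12392 genes), 9 ice sums (15412) and 18 ice libraries (14864), and all 9 members passed each filter. Log2 CPM used a prior count of 2. Naive and conditioned libraries of a letter deviated together (r 0.471 to 0.897 in 9 of 9 pairs), so letters pair them. Replicates differed by more than counting error (lowest chi-square per degree of freedom 25.6). Alternatives were DESeq2 1.42.0, its size factors in edgeR, no filter, only the groups compared, a replicate block, naive or conditioned libraries alone, and each library left out, and, added after seeing the data, ribosomal RNA rows or lithium-experiment libraries with over 10% of their counts in them left out. Genes named outside the members are the called list genes with the smallest adjusted p, at most 4 for each list and comparison, and the genes of highest likeness. The members and lists were chosen with earlier results of these data known.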

Additional observations from a re-analysis of the deposited data

How the results depend on the processing

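Over 99 member results and 1809 alternative values, 1780 kept their side of the threshold, 19 lost a call, 10 gained one, and no called value changed sign. Only 3 of the 99 results were calls, so most values that kept their side were never called. All 19 losses fell on those 3 calls, the averaged fat-5, fat-7 and mdt-15 results, with 18 alternatives each. DESeq2 called 20.5% of all genes for lithium at 20 C (12.2% by edgeR), 3.49% at 15 C (0.387%), 24.6% for 15 C against 20 C on plain agar (9.97%), 0.839% with lithium (0), 24.1% averaged (15.3%) and 0.0161% for the interaction (0). On ice it called 1.04% for 15 C against 20 C, 0.00649% for the return against 15 C and 5.66% for the return against 20 C (0 each). It called 1, 2 and 4 members for temperature on plain agar, with lithium and averaged, and 1 for the return against 20 C. Without a filter 4.53% of genes were called for lithium at 20 C, 3.27%, 0.0506% and 5.58% for those temperature comparisons, 3.43%, 1.0% and 4.66% on ice, 0.00353% for training, and 1 member for the return against 20 C. With only the groups compared, 0 genes were called for lithium at 20 C, 2.25% at 15 C and 0 for temperature on plain agar. With a replicate block 1 member was called on plain agar, fat-7 (0.72, adjusted p = 0.0449), and 0.0242% of genes with lithium. Of 18 correlations between same-numbered lithium-experiment libraries 13 were above 0.1 (range -0.316 to 0.346). Nothing states what the numbers share, and the main fit did not take them as pairs. The block changed no other member call. Leaving out 1 library gave 0.0387 to 22.6% of genes for lithium at 20 C, 0.0867 to 1.87% at 15 C, 5.72 to 26.2% averaged, 0 to 22.5% for temperature on plain agar, 0 to 0.063% with lithium, 1.1 to 21.4% averaged and 0 to 3.45% for the return against 20 C. Members then numbered 0 to 1 for lithium averaged, 0 to 1 for temperature on plain agar and 0 to 3 averaged. Further choices were added after seeing the data. With ribosomal RNA rows left out 0.582% of genes were called for lithium at 15 C, and no member call changed. Without the 3 lithium-experiment libraries rich in ribosomal RNA 0.0579% of genes were called for lithium at 20 C, 0 at 15 C and 0.145% averaged, 0 for temperature on plain agar and 0 averaged, and 0 members in each of these. The causes were not tested. The biological coefficient of variation was 0.645 between ice sums and 0.294 in the lithium experiment, with 3 samples in each group.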
